A study of Mus musculus with 28 samples.

Results

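The line carrying K-ras was compared with its parent line at the start of the experiment, at 0 h in high glucose. NIH3T3 is an immortalised line of mouse embryonic fibroblasts, and NIH3T3 K-ras is named in the labels as its K-ras line. Neither the K-ras allele nor its promoter is named in the labels, nor whether the line is 1 clone. The 4 arrays compared, 2 of NIH3T3 and 2 of NIH3T3 K-ras (called K-ras from here on), were chosen by their labels, which give line, glucose, time and biological replicate number, out of 28 arrays in 14 groups of 2. All 4 cultures had grown for 18 h after seeding in DMEM with 10% newborn calf serum and 4 mM glutamine, were labelled 25 mM glucose, and were collected at the change of medium. The other 24 arrays came from both lines at 24, 48 and 72 h in 25 or 1 mM glucose. The labels call the replicates biological and do not say how the cultures were separated, so p-values measure the spread between these arrays.

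K-ras is a small GTPase that passes growth factor signals to the RAF, MEK and ERK kinases when bound to GTP, and oncogenic forms stay in that state. ERK activity raises transcription of feedback inhibitors such as the DUSP and SPRY genes and of the ETV, EGR and FOS family factors. In fibroblasts, transformation by RAS is known for loss of actin stress fibres and of contractile gene expression. Many contractile genes are driven by serum response factor (SRF), which binds the CArG box and is held active by actin polymerisation.

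Values are log2 ratios of each gene to its own median over the 28 arrays, so 0 is the gene's median array and a difference of 1 is a 2-fold change. Levels of different genes cannot be compared on this scale, and a value does not say whether a gene is absent. Differences are K-ras minus NIH3T3, given ± the standard error of the limma fit over all 28 arrays.

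The line profile of each array was read from Il33, a cytokine released by damaged cells, and Krt14, a keratin of basal epithelium. Both NIH3T3 arrays had low Il33 (-6.11 and -6.10) and high Krt14 (1.60 and 2.17). K-ras replicate 2 had the opposite profile, with Il33 at 1.26 and Krt14 at -3.90. The library labelled K-ras replicate 1 had Il33 at -5.93 and Krt14 at 1.75, which is the NIH3T3 profile. In all, 6 of 28 arrays went against their label in this way. Over 18193 genes, K-ras replicate 1 correlated with the NIH3T3 arrays at 0.695 (replicate 1) and 0.579 (replicate 2), the NIH3T3 arrays correlated with each other at 0.743, and the 2 K-ras arrays correlated at -0.107. These correlations are across genes of single arrays and are descriptions, since genes are not independent replicates. The array most like K-ras replicate 1 was K-ras 1 mM 48 h replicate 1 (0.805), and the one most like K-ras replicate 2 was NIH3T3 1 mM 24 h replicate 2 (0.821), and both of these partners went against their own labels. For the genes described most closely, both K-ras arrays are therefore given separately.

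**Figure D1:**
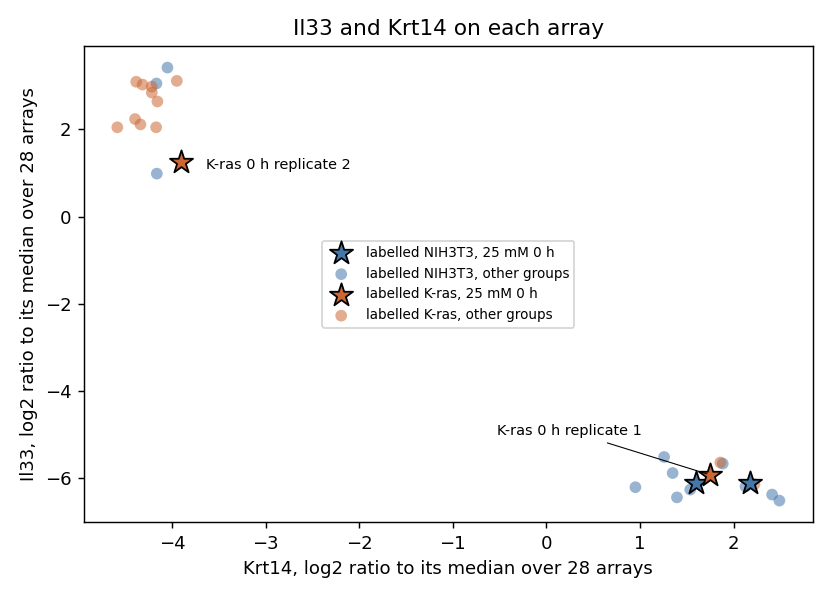
Il33 against Krt14 on each of the 28 arrays, both as log2 ratio to the gene's median, with colour for the labelled line and stars for the 4 arrays at 0 h in 25 mM glucose. K-ras replicate 1 at 0 h (Il33 -5.93, Krt14 1.75) lies among the NIH3T3 arrays, and K-ras replicate 2 (Il33 1.26, Krt14 -3.90) lies at the opposite corner.

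A control spike also followed the labels. The bioC control, bacterial RNA or cRNA added to check hybridisation, read -1.33 and -1.07 on the NIH3T3 arrays and 0.41 and 0.83 on the K-ras arrays, while bioB read -0.09 and 0.00 against 0.08 and 0.54. The 3' minus 5' difference of the Actb control probe sets, a sign of RNA integrity, was -0.56 and -0.55 in NIH3T3 and -0.19 and -0.46 in K-ras. The part of these in the differences that follow was not tested.

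With the labels as given, 2 of 18193 genes (0.011%) were called at an adjusted p under 0.05 (limma moderated test, Benjamini-Hochberg over all genes), and both were lower in the library labelled K-ras replicate 1 and in K-ras replicate 2 than in NIH3T3. These were Acta1, the actin of skeletal muscle thin filaments, and Myl7, the regulatory myosin light chain of the heart atrium. No gene was called higher. At an unadjusted p under 0.05 there were 851 genes (4.68%), against 910 that chance alone would give. The promoters of the called genes, 250 bases before to 50 bases after the transcription start in RefSeq (GRCm38.p6), are shown because both hold a CArG box, printed in capitals, shortly before the start. Acta1 lies at chr8:123894726-123895025 and Myl7 at chr11:5898733-5899032, both on the minus strand and both printed 5′ to 3′ in the direction of transcription.
Acta1: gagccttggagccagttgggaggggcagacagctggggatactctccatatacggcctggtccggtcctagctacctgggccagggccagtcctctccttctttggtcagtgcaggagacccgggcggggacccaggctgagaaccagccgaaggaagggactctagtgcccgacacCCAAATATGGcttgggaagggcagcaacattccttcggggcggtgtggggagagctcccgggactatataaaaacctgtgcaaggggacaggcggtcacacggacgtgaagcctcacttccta
Myl7: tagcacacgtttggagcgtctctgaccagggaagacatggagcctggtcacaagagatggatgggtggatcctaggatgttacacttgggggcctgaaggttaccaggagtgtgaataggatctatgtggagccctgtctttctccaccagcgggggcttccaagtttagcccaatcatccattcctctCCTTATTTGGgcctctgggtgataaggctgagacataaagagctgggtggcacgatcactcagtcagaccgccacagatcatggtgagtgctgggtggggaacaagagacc
The box begins 73 bases upstream of the start in Acta1 and 61 bases upstream in Myl7. Searched on both strands as CC, 6 letters each A or T, and GG with no mismatch, the CArG box occurred in 535 of 32851 RefSeq promoters of that length (1.63%) and in 7 of 29 promoters of the contractile and SRF target list (24.1%), which cover 27 of the list's 30 measured genes. The list was partly composed of known SRF targets, so that share was not independent of the motif. The other members with a box were Actc1, Myl9, Cnn2, Vcl and Srf. Acta2 and Mustn1, also in the list, had no exact match in this window. Acta2 had 2 windows that are 1 letter off the pattern and Mustn1 had 0, where 6527 of 32851 promoters (19.9%) had such a window. The smooth muscle actin promoter is known for CArG boxes that depart from the strict pattern. The AP-1 site, TGACTCA or TGAGTCA, occurred in 1709 of 32851 promoters (5.2%) and in neither Acta1 nor Myl7. A match describes the letters and not a bound site.

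Acta1 stood at 4.80 and 5.14 on the NIH3T3 arrays, 0.50 on K-ras replicate 1 and 1.06 on K-ras replicate 2. The groups did not overlap, and both K-ras arrays were far below both NIH3T3 arrays even though K-ras replicate 1 had the NIH3T3 profile. The difference was -4.19 ± 0.62 (adjusted p = 0.0324, limma, n = 2 a group). The 2 NIH3T3 arrays at 0 h were the highest of all 28, and the other 26 lay between -1.15 and 1.48. Myl7 stood at 1.18 and 1.54 in NIH3T3, -0.26 on K-ras replicate 1 and 0.04 on K-ras replicate 2. Here too the NIH3T3 arrays at 0 h were alone, with the other 26 arrays between -0.35 and 0.45. The difference was -1.47 ± 0.20 (adjusted p = 0.0257, limma). Both genes are measured by 1 probe set. Neither call was firm: leaving out each of the 4 arrays in turn gave adjusted p-values of 0.129 to 0.955 for Acta1 and 0.0455 to 0.955 for Myl7 (limma), where Myl7 kept its call only without NIH3T3 replicate 1. Over all 14 alternatives the difference stayed between -4.47 and -3.29 for Acta1 and between -1.65 and -1.29 for Myl7, with adjusted p-values from 0.000113 to 0.955 and from 0.0106 to 0.955 (limma).

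The other contractile genes mostly lay the same way without passing the test. Of 30 measured contractile and SRF target genes, 16 (53.3%) had both K-ras arrays below both NIH3T3 arrays and 1 had them above, where 23.5% and 16.1% of all genes did so. The 2 called genes are members, and the list's median difference was -0.33, beside -0.05 over all genes. At 24, 48 and 72 h the list's median was -0.44, 0.04 and -0.10. Smooth muscle actin Acta2 read 2.27 and 2.28 in NIH3T3 and 0.61 and 1.33 in K-ras. Over its 3 probe sets the difference ran from -1.30 to -0.17. Tagln, the actin-bundling transgelin of smooth muscle, read 3.04 and 3.41 against 1.05 and 2.41. In both genes K-ras replicate 1, the library with the NIH3T3 profile, was the lowest of the 4. The smooth muscle actin Actg2 (3.54 and 3.91 against 1.48 and 2.88) and the regulatory light chain Myl9 (2.31 and 2.62 against 0.14 and 1.66) had the same order of arrays. Tagln, Actg2, Myl9 and Myh10 were named after their values were seen. The differences were -1.30 ± 0.47 for Acta2, -1.49 ± 0.65 for Tagln, -1.54 ± 0.76 for Actg2 and -1.56 ± 0.80 for Myl9, each with an adjusted p of 0.996 (limma). The single member higher in K-ras was the non-muscle myosin heavy chain Myh10, at -0.42 and -0.49 against -0.12 and 0.39, though another of its probe sets gave a difference of -0.20.

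The genes of striated muscle as a whole did not stand out to the same degree. Of 32 measured skeletal and cardiac muscle markers, 10 were lower without overlap (31.2%) and 4 higher (12.5%), with a median of -0.14 and none called. The shares of all genes were 23.5% lower and 16.1% higher. Levels had been removed from the values, so the presence of muscle cells, or of any cell type, could not be read from them. In bulk RNA, fewer cells of a type and less RNA per cell cannot be told apart.

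Among all genes, 7200 (39.6%) had no overlap between the 2 groups, 2920 (16.1%) with K-ras above and 4280 (23.5%) with K-ras below. Only 32 genes were separated by at least 1 log2 unit, 16 in each direction (0.0879% each). The widest separation on the lower side was that of Acta1. Mustn1, a small nuclear protein of the musculoskeletal system, read 2.84 and 2.83 in NIH3T3, 0.97 on K-ras replicate 1 and -2.48 on K-ras replicate 2. Fhl1, a LIM-domain protein of muscle, read 5.90 and 5.69 against 4.15 and -0.92. In these 2 genes K-ras replicate 1 lay between the NIH3T3 arrays and K-ras replicate 2. Klhl30, a kelch-like protein, read 2.15 and 2.07 against 0.32 and -0.43. Txnip, the thioredoxin-interacting arrestin that is induced by glucose and limits its uptake, read 1.68 and 1.74 against -0.50 and 0.01. Here, as in Acta1, the 2 K-ras arrays were close to each other. Its paralog Arrdc4, which is not among the 10 most separated, read 1.42 and 1.32 against 0.89 and 0.03. Dbp, an output transcription factor of the circadian clock, read 1.14 and 1.00 against -0.43 and -1.09. The others of the 10 most separated were Cbr2, a carbonyl reductase, Ppbp, a platelet chemokine, Car6, a secreted carbonic anhydrase, and the histone gene H2ac19, with differences of -2.72 ± 0.90, -1.56 ± 0.56, -1.48 ± 2.11 and -1.75 ± 0.65. No gene of this set but Acta1 passed the test, with adjusted p-values of 0.996 to 1.00 (limma).

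On the higher side the widest separations were those of Strn3, a striatin scaffold of PP2A, and Egr3, an early growth response factor. Strn3 read -1.12 and -1.60 in NIH3T3 and 0.55 and 0.35 in K-ras. Egr3 read -3.31 and -3.23 against -1.80 and 1.30. Ccng2, a cyclin that is raised when growth factor signalling falls, read -4.07 and -4.04 against -2.87 and -0.50. Strn3 had its K-ras arrays together, and Egr3 and Ccng2 had K-ras replicate 1 nearer to NIH3T3. Plat, the tissue plasminogen activator, read -1.79 and -1.60 against -0.24 and -0.32, and its K-ras arrays were again together. The transcriptional repressor Trps1 differed by 2.02 ± 0.68, the histone demethylase Kdm7a by 1.75 ± 1.15, the heparan sulphate sulphotransferase Hs2st1 by 1.32 ± 0.83 and the serine incorporator Serinc5 by 1.34 ± 0.34. Bhlhb9 and Armcx1, 2 armadillo-repeat genes of the same X-linked family, differed by 2.05 ± 0.68 and 1.15 ± 0.48. None of these 10 passed the test (adjusted p of 0.996, limma), and for Egr3 and Plat another probe set of the gene gave a difference of opposite sign, -0.25 and -0.29.

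**Figure D2:**
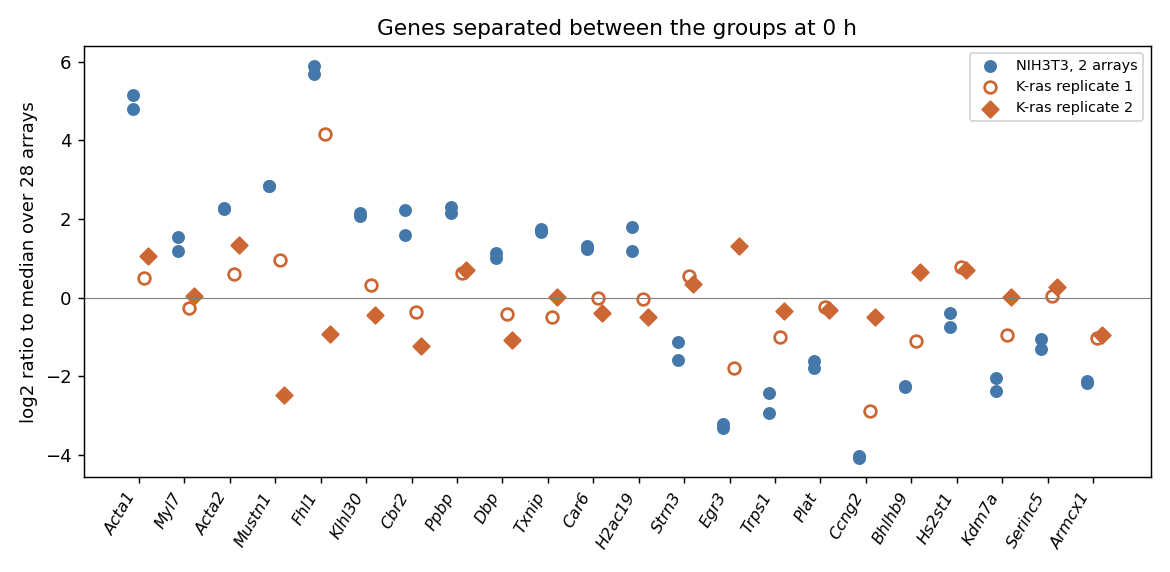
Log2 ratio on each of the 4 arrays for Acta1, Myl7, Acta2 and the genes with the widest separation between the groups at 0 h, with filled circles for the 2 NIH3T3 arrays, open circles for K-ras replicate 1 and diamonds for K-ras replicate 2. In Acta1, Myl7, Txnip, Strn3 and Plat the 2 K-ras arrays lie together, and in Mustn1, Fhl1, Egr3 and Ccng2 replicate 1 lies nearer to NIH3T3.

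No target of the RAS and ERK pathway was called with all arrays. Of 26 measured output genes 7 were higher without overlap (26.9%) and 2 lower (7.69%), with a median difference of 0.41. Over all genes, 16.1% were higher and 23.5% lower, with a median of -0.05. The median of K-ras replicate 1 minus NIH3T3 over the list was -0.02, with members on both sides of 0. Egr1, an immediate transcription factor of ERK signalling, read -1.66 and -2.35 in NIH3T3, -0.62 on K-ras replicate 1 and 0.40 on K-ras replicate 2. Dusp6, the phosphatase that inactivates ERK, read -0.67 and -0.89 against -0.21 and 0.47. These 2 genes, like most list members named for the comparison with all arrays, were picked for their gap. Both K-ras arrays were thus bound to lie on one side of NIH3T3. Of the K-ras arrays, replicate 2 was the higher in both genes. Hmga2, a chromatin protein linked to transformation, read -0.69 and -0.70 against -0.24 and 1.07, and the ETS factor Etv5 read -0.51 and -0.60 against 0.13 and 0.05. Fosl1, an AP-1 subunit that is a long-standing marker of RAS transformation, read -0.29 and -0.14 against -0.22 and 0.87. Its groups overlapped, and the difference was 0.54 ± 0.57 (adjusted p = 0.999, limma). The phosphatase Dusp4 read -0.60 and -0.55 against -0.57 and 0.40, so its K-ras arrays disagreed. The differences of Dusp4 (0.49 ± 0.70), the growth factor Ereg (0.43 ± 0.69), Myc (0.35 ± 0.59) and the cyclin Ccnd1 (-0.08 ± 0.99) were all within 1 standard error of 0.

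Nras, a member of the Ras family, differed by 0.06 ± 0.32. Of 21 measured Ras family genes and regulators, 5 were higher without overlap (23.8%) and 4 lower, with none called and a median of 0.07. The exchange factor Sos2 read -0.55 and -0.93 in NIH3T3 and 0.19 and 0.00 in K-ras. The GTPase-activating protein Rasa2 read -1.14 and -2.01 against -0.77 and 0.60. Of 23 immediate early genes, which serum and growth factors induce within minutes, 6 were higher (26.1%) and 3 lower (13.0%) without overlap. Beside both lists of this paragraph, 16.1% of all genes were higher and 23.5% lower without overlap. Klf6 read 1.72 and 1.15 against 0.14 and 0.09, while Jun read 0.24 and -0.19 against 0.63 and 0.99. None of these was called.

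The list with the largest share of members on the higher side was that of cholesterol synthesis and uptake, genes that the transcription factor SREBP2 drives when sterols are low. Of 20 measured members, 13 (65.0%) had both K-ras arrays above both NIH3T3 arrays, none had them below, and the median difference was 0.43. None was called. Of all genes, 16.1% lay above and 23.5% below in this way. Lss, the cyclase that forms lanosterol, read -1.71 and -2.24 in NIH3T3, -0.68 on K-ras replicate 1 and 0.00 on K-ras replicate 2, a difference of 1.64 ± 0.60 (adjusted p = 0.996, limma). The synthase Hmgcs1 read -0.94 and -1.74 against -0.32 and -0.16, and the decarboxylase Mvd read -1.67 and -1.14 against -0.71 and -0.43. Insig1, the brake on SREBP processing, read -1.06 and -1.34 against -0.63 and -0.42. These 4 genes were named for their gap, so K-ras replicate 1 was bound to lie on the side of replicate 2. The list median of K-ras replicate 1 alone against NIH3T3 was 0.38. At 24, 48 and 72 h the list's median difference was 0.57, 0.52 and 0.22.

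Collagen genes mostly lay on the lower side. Of 24 measured members, 11 (45.8%) were lower without overlap and 1 (4.17%) higher, with a median of -0.42 and none called. The shares of all genes were 23.5% lower and 16.1% higher. Col1a1, a chain of fibrillar collagen I, read 0.92 and 0.76 in NIH3T3 and 0.18 and 0.02 in K-ras. Col5a3 read 0.63 and 0.59 against -0.68 and -0.56. Their K-ras arrays were close together, but for both genes another probe set gave a difference of opposite sign, 0.20 for Col1a1 and 0.14 for Col5a3. The basement membrane chain Col4a1 (0.86 and 0.65 against 0.29 and -0.31) and the microfibrillar Col6a2 (-0.03 and 0.31 against -0.56 and -0.83) were also separated. The remaining matrix and adhesion genes had no such shift, with 5 higher and 7 lower of 34 and a median of 0.04.

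In growth and stress lists the medians were smaller, apart from the unfolded protein list. Of 38 mitosis genes, 18 were lower without overlap (47.4%) and 5 higher (13.2%), with a median of -0.19. For this and the lists that follow, the shares of all genes were 23.5% lower and 16.1% higher. The spindle protein Prc1 read 1.26 and 1.36 in NIH3T3 and 0.66 and 0.33 in K-ras, and Cdc20, an activator of the anaphase-promoting complex, read 0.59 and 1.12 against 0.30 and 0.27. The median of the mitosis list was -0.25 at 24 h and had the opposite sign at 48 h (0.78) and 72 h (0.80). The 40 DNA replication genes had 3 higher and 4 lower, with a median of -0.10. Of 19 p53 targets, 8 were higher (42.1%) and 3 lower (15.8%), with a median of 0.16. The median of this list had the opposite sign at 24 h (-0.48), 48 h (-0.28) and 72 h (-0.67). Trp53inp1, a stress protein of this pathway, read -2.88 and -3.07 against -1.82 and -0.62, and the p53 ligase Mdm2 read -0.01 and -0.09 against 0.49 and 0.42, though another of its probe sets gave a difference of -0.25. Of 28 unfolded protein and amino acid stress genes, 11 were lower (39.3%) and 2 higher (7.14%), with a median of -0.32. The 21 genes of glycolysis and glucose transport had 6 lower and 2 higher and a median of -0.01, the 30 nucleolar genes 6 lower and 2 higher and a median of -0.10, and the 28 interferon response genes 3 lower and 6 higher and a median of -0.03. No member of these lists was called.

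**Figure D3:**
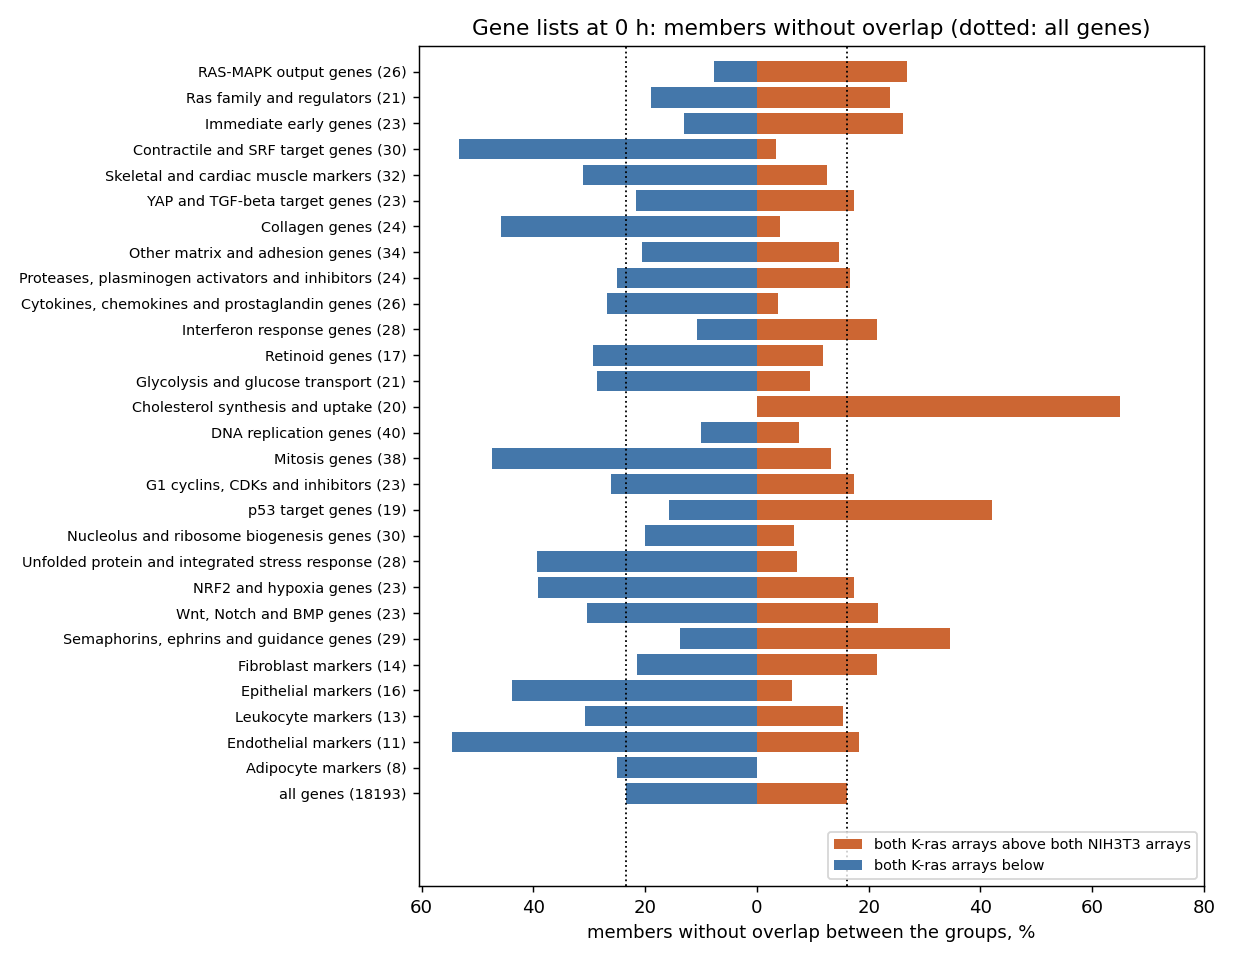
Share of each gene list (number measured in brackets) with both K-ras arrays above both NIH3T3 arrays, to the right, or below both, to the left, in percent, with the shares over all 18193 genes as dotted lines. Cholesterol genes reach 65.0% to the right, and contractile genes 53.3%, mitosis genes 47.4% and collagen genes 45.8% to the left, where all genes have 16.1% and 23.5%.

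Read without the 6 arrays that went against their label, the comparison rested on K-ras replicate 2 alone against the 2 NIH3T3 arrays, with the spread taken from the 22 arrays left and the lone array assumed to vary like the others. Then 410 of 18193 genes (2.25%) were called, 238 higher (1.31%) and 172 lower (0.945%), with 1985 (10.9%) at an unadjusted p under 0.05. The 6 arrays were picked by Il33 and Krt14, so genes that follow these 2 were bound to separate, and the calls describe replicate 2 rather than support its label. The median absolute difference of the 410 genes was 2.14 in this fit and 1.16 with all arrays. K-ras replicate 1 was nearer to the NIH3T3 mean than to K-ras replicate 2 in 391 of the 410, where 56.4% of all genes were so. In the other 19 it was nearer to K-ras replicate 2, and these included Acta1, Myl7 and Klhl30. Birc7, an inhibitor of apoptosis (1.20 and 0.91 in NIH3T3, 0.00 and -0.61 in K-ras), Il13ra1, a chain of the interleukin 13 receptor (-0.97 and -1.86 against -0.11 and 0.91), and Pign, an enzyme of GPI anchor synthesis (1.16 and 1.04 against 0.12 and -0.36), were among them and were named after their values were seen. Other probe sets of Pign and Il13ra1 gave 0.29 and -0.001 with all arrays. Leaving out K-ras replicate 1 and keeping the other 5 gave no call, with 1280 genes (7.04%) at an unadjusted p under 0.05 (limma). K-ras replicate 1 alone against NIH3T3 gave no call either, with 453 such genes (2.49%).

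**Figure D4:**
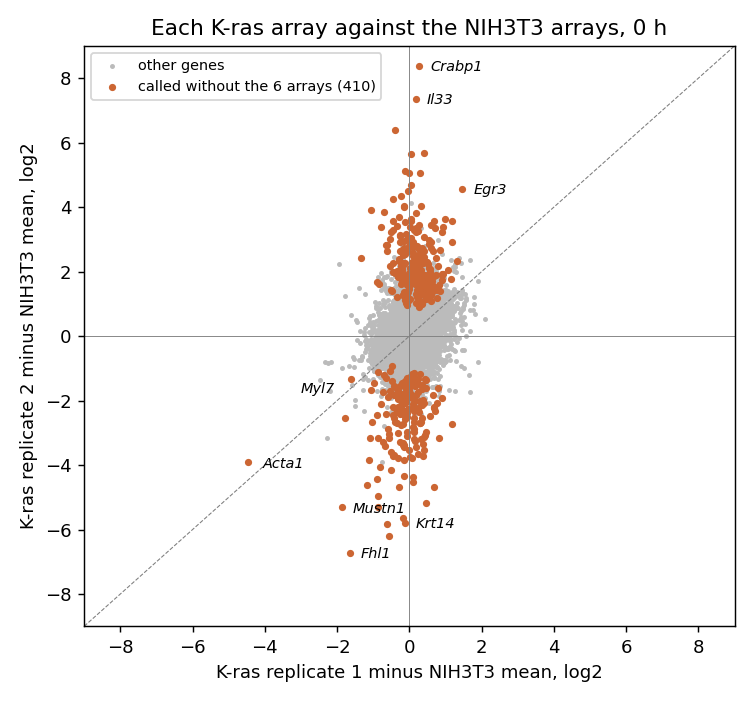
Difference of each gene from the NIH3T3 mean at 0 h on K-ras replicate 1 (horizontal) and on K-ras replicate 2 (vertical), in log2 units, with the 410 genes called without the 6 arrays in orange and equal differences on the dashed line. Most orange points lie along the vertical axis, near 0 on replicate 1, while Acta1 and Myl7 lie near the dashed line.

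The genes with the largest rise on K-ras replicate 2 in this fit were of several kinds. Crabp1, which binds retinoic acid in the cytoplasm, read -5.77 and -5.68 in NIH3T3, -5.45 on K-ras replicate 1 and 2.65 on K-ras replicate 2. Replicate 2 was thus 8.38 ± 0.27 above NIH3T3 (adjusted p = 2.82e-09, limma without the 6 arrays), while the difference with all arrays was 4.32 ± 2.79 (adjusted p = 0.996). Il33 rose by 7.37, and since it helped to pick the arrays it is a description. Cytip, a scaffold of cytohesin in leukocytes, read -2.68 and -2.39 in NIH3T3, -2.94 on K-ras replicate 1 and 3.84 on K-ras replicate 2. On replicate 2 it rose by 6.38 ± 0.29, and Ngef, a guanine nucleotide exchange factor of axon guidance, by 5.68 ± 0.96. Hs6st2, a heparan sulphate sulphotransferase, rose by 5.66 ± 0.42, the defensin Defb41 by 5.11 ± 0.29, the receptor-modifying protein Ramp3 by 5.07 ± 0.38 and the lymphangiogenic factor Ccbe1 by 5.06 ± 0.28. Other probe sets of Hs6st2 and Ccbe1 gave -0.38 and 0.00 in the same fit.

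The genes with the largest fall were also of several kinds. Fhl1 fell by 6.71 on the log2 scale (SE 0.85, adjusted p = 0.000692, limma without the 6 arrays), and Mustn1 fell by 5.31 (SE 0.56). The other probe set of Fhl1 gave -0.11 in the same fit. Anxa8, an annexin of stratified epithelia, read 1.37 and 1.74 in NIH3T3, 0.98 on K-ras replicate 1 and -4.64 on K-ras replicate 2. Slurp1, a secreted keratinocyte protein, read 1.91 and 1.95 against 1.07 and -3.37. For both genes K-ras replicate 1 lay a little below the NIH3T3 arrays and far above K-ras replicate 2. Sulf1, an extracellular sulphatase of heparan sulphate, fell by 5.82, and Krt14 fell by 5.79, and other probe sets of these genes gave -0.17 and 0.19. Krt14, like Il33, helped to pick the arrays and is a description. Ctla2a, a cysteine protease inhibitor, fell by 5.18, and the retinaldehyde dehydrogenase Aldh1a1 fell by 4.96. Its neighbour in the family, Aldh1a7, fell by 4.62.

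By role, the median difference of the RAS and ERK output genes was 0.69 in this fit, beside -0.06 over all genes. The members called in this fit were all higher. These were Dusp6 (1.25 ± 0.25), the inhibitor Spry4 (2.01 ± 0.34) and the ETS factor Etv4 (2.35 ± 0.41). Spry4 read -0.72 and -0.79 in NIH3T3, -1.11 on K-ras replicate 1 and 1.26 on K-ras replicate 2, so its rise was on replicate 2 alone, and another of its probe sets gave a difference of -0.31 with all arrays. The GTPase-activating proteins Rasa1 (1.56 ± 0.32) and Rasa2 (2.18 ± 0.46) were also called higher. Of the immediate early genes Egr3 was called higher (4.57 ± 0.85), and Klf2 (-3.71 ± 0.32) and the MAP kinase phosphatase Dusp1 (-2.07 ± 0.43) were called lower. Klf2, a factor linked to quiescence, read 0.82 and 1.05 in NIH3T3, 1.32 on K-ras replicate 1 and -2.77 on K-ras replicate 2. Apart from those the widest-separation rule gave, the genes of this and the next 2 paragraphs were named because they were called in this fit, after their values were seen. The shares of all genes called in this fit were given above, and no list was tested against them.

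Matrix and adhesion genes were called in both directions on K-ras replicate 2. For several genes of this and the next paragraph, K-ras replicate 1 lay on the other side of the NIH3T3 mean. Their ranges with each array left out are given under the processing alternatives. Higher were the cell adhesion cadherin Cdh11 (3.92 ± 0.25), the hyaluronan synthase Has2 (3.57 ± 0.42) and the thrombospondin Thbs2 (3.30 ± 0.60). So were the tenascin Tnc (1.60 ± 0.34) and the fibronectin receptor chain Itga5 (1.38 ± 0.32). Another probe set of Itga5 gave a difference of opposite sign with all arrays, -0.063. Mfap5, of the elastic microfibrils (-3.42 ± 0.40), and the collagen IV chain Col4a2 (-1.55 ± 0.31) were lower. Has2 read -0.68 and -0.65 in NIH3T3, -0.62 on K-ras replicate 1 and 2.90 on K-ras replicate 2. Of the proteases, the gelatinase Mmp9 (2.28 ± 0.39) and the cathepsins Ctsk (2.01 ± 0.44) and Ctsl (1.30 ± 0.27) were called higher. Another probe set of Ctsl gave -0.13 with all arrays. Of the inhibitors listed with them, Ctla2a, its relative Ctla2b (-4.69 ± 0.41) and the metalloprotease inhibitor Timp3 (-3.01 ± 0.57) were called lower. So was Serpinb2, the plasminogen activator inhibitor (-2.66 ± 0.58). Timp3 read 2.05 and 1.84 in NIH3T3, 1.63 on K-ras replicate 1 and -1.07 on K-ras replicate 2. Timp1, by contrast, read 1.60 and 1.83 against 0.33 and 0.97 and was not called.

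A few of the 26 cytokine and prostaglandin genes and of the 29 guidance genes were called, each of them higher. Of the cytokine and prostaglandin genes, the monocyte chemokine Ccl2 (2.41 ± 0.38) and Il11 (2.24 ± 0.44) were called higher. So was Ptges, a prostaglandin E synthase (2.26 ± 0.32). Il33, which helped to pick the arrays, was left aside. Ccl2 read -0.77 on both NIH3T3 arrays, -2.12 on K-ras replicate 1 and 1.64 on K-ras replicate 2, so the 2 K-ras arrays lay on opposite sides of NIH3T3. The guidance genes called higher were Sema7a (3.69 ± 0.31), Slit3 (2.83 ± 0.36), Ngef and the semaphorin and VEGF receptor Nrp1 (2.21 ± 0.35). Slit2 (1.79 ± 0.69) and Plxnd1 (1.28 ± 0.37), which were separated between the groups, were not called. Tgfb3 (2.91 ± 0.46), the Wnt antagonist Dkk3 (2.68 ± 0.31), the glutathione transferase Gsta4 (3.57 ± 0.41) and Ccng2 (3.56 ± 0.52) were higher. The vasoactive peptide Adm (-3.68 ± 0.43) and the p53 target Pmaip1 (-1.91 ± 0.43) were lower. Of the TGF-beta targets, Pmepa1 read 1.61 and 1.71 in NIH3T3 and 0.12 and 0.70 in K-ras, and Tgfbi read -2.70 and -2.79 against -2.10 and -0.48, and neither was called. No member of the cholesterol, mitosis, DNA replication, stress response, interferon or glycolysis lists was called in this fit. So small a share of all genes was called that lists of this size could hold none. The medians of the cholesterol and mitosis lists were 0.59 and -0.31 in the same fit.

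Markers of other cell types moved with the comparison in part. Without overlap, 23.5% of all genes were lower and 16.1% higher, and without the 6 arrays 0.945% were called lower and 1.31% higher. Of 16 epithelial markers 7 were lower without overlap (43.8%), and Anxa8 and Slurp1 were called lower without the 6 arrays, leaving aside Krt14, which helped to pick them. The mean of the list was 0.31 to 0.40 on the NIH3T3 arrays, 0.18 on K-ras replicate 1 and -0.83 on K-ras replicate 2, where Anxa8, Krt14 and Slurp1 were far below the rest, and the median difference of the list without the 6 arrays was -0.18. Of 11 endothelial markers 6 were lower (54.5%) and 2 higher (18.2%), and the VEGF receptor Flt1 was called (-2.76 ± 0.57). Of 14 fibroblast markers 3 were higher and 3 lower (21.4% each), and the receptor Pdgfra was called higher (2.97 ± 0.65). The adipocyte list (8 genes) had the lipase Lpl called lower (-2.82 ± 0.59) and the fatty acid carrier Fabp4 called higher (2.50 ± 0.44), although another probe set of Fabp4 gave -0.22 with all arrays. The 13 leukocyte markers had none called. The part of other cells in these differences was not tested.

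The 24, 48 and 72 h arrays at 25 mM are other cultures, and all 12 had the profile of their label. The bioC control also separated them, at -2.34 to -0.84 on the NIH3T3 arrays and -0.26 to 2.98 on the K-ras arrays. The highest was K-ras 72 h replicate 1, where bioB read 3.07. The part of this in the later differences was not tested. Of the 410 genes, 409, 404 and 399 had a difference of the same sign at 24, 48 and 72 h, where 69.9%, 65.8% and 55.7% of all genes did. A difference of at least 1 with that sign was held by 344, 325 and 308 of them, where 9.0%, 8.47% and 10.6% of all genes held one. The sign was the same at all 3 times in 395 genes, against 31.6% of all genes. In 339, all 6 later K-ras arrays lay beyond all 6 later NIH3T3 arrays in the same direction as at 0 h. Of all genes, 7.94% had no overlap of these later arrays in either direction, whatever their sign at 0 h. At 24, 48 and 72 h 354, 321 and 311 of the 410 were themselves called with the same sign, beside 6.29%, 5.49% and 8.89% of all genes called at those times in either direction (limma without the 6 arrays). The calls at 0 h and later came from the same fit and shared each gene's spread, so their overlap is not independent. Crabp1 differed by 8.11, 9.10 and 9.30 at 24, 48 and 72 h, and Mustn1 by -4.19, -3.22 and -4.34. Acta1 and Myl7, in contrast, were near their medians at the later times in both lines. The differences of Acta1 were -0.84, -0.40 and -0.89, and those of Myl7 were -0.32, 0.15 and 0.29. The later NIH3T3 arrays held Acta1 at -0.10 to 0.85 and the later K-ras arrays at -1.07 to -0.03.

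Whether a difference at 0 h departed from its later mean was tested as a contrast in the same limma fit, and no gene was called (713 at an unadjusted p under 0.05, 3.92%). For Acta1 the 0 h difference minus the later mean was -3.48 ± 0.72 (adjusted p = 0.926, and 0.0513 without the 6 arrays). Without the 6 arrays 1 gene was called (0.0055%, with 503 or 2.76% at an unadjusted p under 0.05). It was Ranbp3l, a nuclear export cofactor. Ranbp3l read -0.01 and -0.03 in NIH3T3 and -0.23 and -0.30 in K-ras at 0 h, and its line difference was -0.66, -2.18 and -4.40 at 24, 48 and 72 h. The 0 h difference lay above the later mean by 2.13 ± 0.27 (adjusted p = 0.0499, limma) and, with all arrays, by 2.17 ± 0.39 (adjusted p = 0.30). Fosl1 had a similar course in the other direction, at 0.79, 2.21 and 4.99, as did Hmga2 (1.06, 3.35 and 3.62), Dusp4 (1.08, 1.34 and 3.76) and Ereg (0.98, 2.13 and 3.32). Lss differed by 2.06, 1.69 and 1.49.

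**Figure D5:**
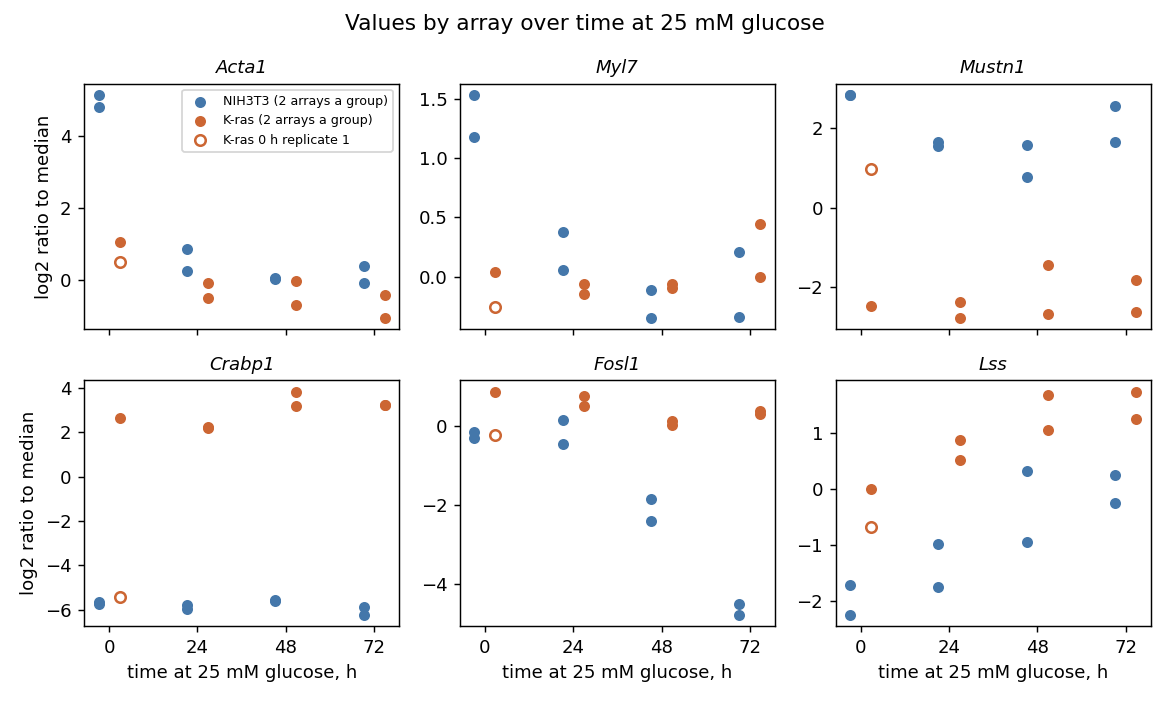
Log2 ratio on each array at 25 mM glucose at 0, 24, 48 and 72 h for 6 genes, blue for NIH3T3 and orange for K-ras, with K-ras replicate 1 at 0 h as an open circle. Acta1 and Myl7 are high only on the NIH3T3 arrays at 0 h, Crabp1 on K-ras replicate 1 lies with NIH3T3 (-5.45), and Fosl1 separates the lines most at 72 h, by 4.99.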

How the data were processed

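RNA of 28 cultures was hybridised to Affymetrix mouse arrays, 1 array a culture, after one-cycle biotin labelling, per the labels' protocols. The authors deposited log2 values for 45101 probe sets. RMA is named per the submitters' processing notes, and its version is not given in the sources used here. In every probe set of the table the linear values had 1 as their median across arrays (tolerance 0.001). The deposited log2 values are thus ratios to each probe set's own median, and levels were removed. Signal over background is unknown, and a filter on dim genes could not be run. The precision that can be stated is limited by the number of arrays and by the spread between them. That spread includes the arrays that went against their label.

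Symbols came from the platform annotation: 34945 probe sets had 1 symbol, 932 several, 9160 none and 64 were controls. Of these, 34741 matched the RefSeq gene table (GRCm38.p6) by Entrez number. Only probe sets with 1 symbol were used, and for the 9010 genes with over 1 the probe set of largest SD over all arrays stood for the gene, which left 18193 genes.

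limma 3.58.1 in R 4.3.3 (lmFit and eBayes) was fitted with 1 coefficient per labelled group over all 28 arrays, so that the spread is shared by the 14 groups. p-values were two-sided and adjusted by Benjamini-Hochberg over all genes, and an adjusted p under 0.05 was called. The scripts were tested on simulated data. Python 3.11.15 made the counts and figures. Whether replicate numbers pair the arrays is not known, and they were not used as pairs in the main fit. The deviations of same-numbered arrays at 0 h correlated at -0.002 over genes. The 2 K-ras arrays had opposite profiles, so this value cannot show whether the arrays were paired.

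Named were the called genes, the 10 with the widest gap between the groups in each direction, the 8 largest rises and falls called without the 6 arrays against their label, up to 4 members of a list with the largest gap, and 15 genes chosen by name. Clone and predicted genes were counted, not named. Genes named after their values were seen are marked in the text. The comparison, the 28 gene lists (665 of 703 entries measured) and the rule were chosen with earlier results of these data known. No set test was run. Alternatives were other arrays in the fit, quantile normalization, an SD filter, other probe sets, a replicate block, array weights, a robust variance prior, leaving out the 6 arrays and leaving out each array at 0 h.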

Additional observations from a re-analysis of the deposited data

How the results depend on the processing

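Against 2 called genes, 0 were called with only the 4 arrays, 1 with only the 16 arrays at 25 mM, 1 after quantile normalization, 1 after the SD filter, 1 over every probe set and 4 with array weights. The mean of probe sets and the robust prior both gave 2. Without the 6 arrays against their label 410 were called, and leaving out each array at 0 h in turn gave 0 to 2. The replicate block, with the replicate number as a term, gave 0, and whether the numbers pair the arrays is not known. Of the contrast with the later times, against 0 called genes, 3 were called with only the 16 arrays at 25 mM, 1 with the mean of probe sets and 1 without the 6 arrays, and 0 with the replicate block. The causes of these changes were not tested.

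Of 110 named genes with alternatives, 34 changed sign under at least 1. Another probe set of the gene gave the opposite sign for Egr3 (-0.25), Plat (-0.29), Hs6st2 (-0.33), Ccbe1 (-0.022), Krt14 (0.39), Col5a3 (0.14), Col1a1 (0.20), Ccnd1 (0.078), Mdm2 (-0.25), Spry4 (-0.31), Itga5 (-0.063), Ctsl (-0.13), Fabp4 (-0.22), Il13ra1 (-0.001), Pign (0.29) and Myh10 (-0.20). Without the 6 arrays Ccnd1 was 0.25 and Nras -0.12. With each array at 0 h left out in turn the ranges that crossed 0 were Cytip -0.41 to 6.38, Defb41 -0.12 to 5.11, Ccbe1 -0.008 to 5.06, Ctla2a -5.18 to 0.47, Fosl1 -0.007 to 1.09, Ereg -0.054 to 0.91, Ccnd1 -0.41 to 0.25, Nras -0.14 to 0.25, Spry4 -0.36 to 2.01, Klf2 -3.71 to 0.38, Dusp1 -2.07 to 0.40, Itga5 -0.16 to 1.38, Tnc -0.83 to 1.60, Cdh11 -1.06 to 3.92, Ctsk -0.30 to 2.01, Mmp9 -0.45 to 2.28, Il11 -0.14 to 2.24, Ccl2 -1.35 to 2.41, Pmaip1 -1.91 to 0.90, Slit3 -0.62 to 2.83, Sema7a -0.28 to 3.69 and Lpl -2.82 to 0.11, and for all of these but Ccnd1 and Nras the crossing value came from leaving out K-ras replicate 2, which leaves K-ras replicate 1 against NIH3T3. Acta1 and Myl7 kept their sign under all alternatives run. The list medians of cholesterol, contractile, collagen, mitosis and unfolded protein genes kept their sign under all alternatives too, while that of the RAS and ERK output genes was -0.02 without K-ras replicate 2.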

Other observations

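Counts and medians of the lists that were not yet given follow, where 16.1% of all genes were higher and 23.5% lower without overlap. No member of these lists was called when all arrays were kept. Guidance genes had 10 of 29 higher without overlap (34.5%) and 4 lower, with a median difference of 0.24. Immediate early genes had a median of 0.14. The 26 cytokine and prostaglandin genes had 1 higher and 7 lower (median -0.03), and the 24 proteases and inhibitors 4 higher and 6 lower (median -0.05). The 23 targets of YAP and TGF-beta had 4 higher and 5 lower (median -0.11), the 23 genes of Wnt, Notch and BMP signalling 5 higher and 7 lower (median 0.04), and the 23 NRF2 and hypoxia genes 4 higher and 9 lower (39.1%, median 0.06). The 23 G1 cyclins, CDKs and inhibitors had 4 higher and 6 lower (median -0.08), and the 17 retinoid genes 2 higher and 5 lower (median -0.05). Of the markers of other cells, the 14 fibroblast genes had a median of 0.19, the 16 epithelial genes -0.13, the 13 leukocyte genes -0.05 with 2 higher and 4 lower, the 11 endothelial genes -0.16 and the 8 adipocyte genes -0.12 with 0 higher and 2 lower.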
